A study of Homo sapiens with 6 samples.

Results

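The 10 genes described here are 9 genes of SR splicing factors, SRSF1, SRSF2, SRSF3, SRSF4, SRSF5, SRSF6, SRSF7, SRSF10 and SRSF11, and CLK1, a kinase that phosphorylates SR proteins. They were listed by name, without a threshold on a measured value, and matched by gene symbol and Ensembl identifier. All 10 were among the 57905 genes of the count table and among the 16622 genes that had enough counts to be tested. RNA-SEQ was performed on NALM6, a human leukemia line of B cell precursor origin, and all libraries came from this 1 line. The control group was 3 libraries of cells given the solvent DMSO for 24 h, and the treated group was 3 libraries of cells given 500 nM of THZ1 for 24 h. THZ1 is a covalent inhibitor of CDK7, the kinase of the transcription factor TFIIH, and is known to act on CDK12 and CDK13 as well.

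SR proteins carry RNA recognition motifs, which bind short sequences in exons, and a tail rich in arginine and serine, which recruits the splicing machinery to the nearby splice sites. Phosphorylation of this tail decides where the proteins reside and whether they act. SRPK kinases phosphorylate it in the cytoplasm and allow import into the nucleus, and CLK kinases phosphorylate it further and release the proteins from nuclear speckles. Many SR genes and CLK1 are known to make, beside the coding mRNA, transcripts with retained introns or premature stop codons, through which their own amount is adjusted. Reads counted per gene do not separate these forms.

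DMSO-treated libraries held 11015480 to 11164840 counts on genes, and THZ1-treated libraries held 7876402 to 8314306. The share of counts on mitochondrially encoded genes was 4.32% to 4.37% with DMSO and 12.6% to 13.6% with THZ1, and its part in the values below was not tested. Levels are given in CPM, the count of a gene divided by the total of its library and brought to the customary common total. The totals were scaled by TMM, a method that sets the bulk of genes equal between libraries, so that every CPM value is relative to the other RNA of the library. All 9 B cell precursor markers were detected, with a summed level of 3454 to 3721 CPM with DMSO and 1644 to 1739 CPM with THZ1. Of them 7 fell, and 1, CD79A, rose 2.51-fold. By the same test, described below, 43.5% of all genes tested were higher with THZ1 and 41.1% lower. The 4 T cell markers summed to at most 0.277 CPM in any library. Markers of other blood cells were low but higher with THZ1. The 4 myeloid markers summed to 3.88 to 4.59 CPM with DMSO and 17.03 to 18.02 CPM with THZ1, with CD14 and CSF1R higher and LYZ lower. The erythroid markers KLF1 and ALAS2 were at a mean of 0.166 and 0.0549 CPM with DMSO and of 2.65 and 3.09 CPM with THZ1, and both were called higher. The part of these markers in the values of the 10 genes was not tested. A change in a gene's RNA per cell cannot be told apart from a change in the rest of its RNA. Nothing in the labels says whether the 3 libraries of a group came from separate cultures, so the p-values measure the spread between these libraries, which may be technical.

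The stretches just before the transcription start are shown for the pair of SR genes that fell most and for CLK1, which rose most. They are the 100 bases from −100 to −1, taken from RefSeq on GRCh38.p14 and written on the gene's own strand, with matches to the searched motifs in capitals. SRSF1 lies at chr17:58007247-58007346 on the minus strand, SRSF3 at chr6:36594262-36594361 on the plus strand, and CLK1, at the more upstream of its pair of starts, at chr2:200864659-200864758 on the minus strand.
SRSF1: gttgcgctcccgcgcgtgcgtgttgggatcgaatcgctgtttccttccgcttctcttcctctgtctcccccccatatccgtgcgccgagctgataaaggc
SRSF3: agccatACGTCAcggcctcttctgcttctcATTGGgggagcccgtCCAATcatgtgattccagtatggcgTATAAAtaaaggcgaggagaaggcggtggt
CLK1: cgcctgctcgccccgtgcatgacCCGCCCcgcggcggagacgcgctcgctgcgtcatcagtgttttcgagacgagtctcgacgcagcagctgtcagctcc

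In SRSF3, TATAAA spans −30 to −25, CCAAT stands once on each strand, and ACGTCA is TGACGT read on the opposite strand. In CLK1, CCGCCC is the reverse strand of GGGCGG, the GC box to which SP1 binds. The SRSF1 stretch held no match. The search covered the 250 bases before the start on both strands for 8 motifs, and 9 of the 10 genes had at least 1 such window in the table (SRSF2 had none). A gene was counted when any of its windows matched, whereas the percentages are of single windows. Genes with more than 1 window, such as SRSF7 and CLK1, thus had more chances of a match. TATAAA was found in 3 genes (SRSF3, SRSF7 and SRSF11) and in 10.7% of all 35116 windows, and CCAAT in 1 gene (SRSF3) and in 32.0% of windows. GGGCGG was found in 4 genes (SRSF4, SRSF6, SRSF7 and CLK1) and in 42.6% of windows. The palindromic motif of NRF1 was found in 3 genes (SRSF1, SRSF10 and CLK1) against 5.07% of windows, and CCGGAAG, an ETS motif, in 2 genes (SRSF4 and SRSF5) against 8.52%. TGACGT was found in 3 genes (SRSF1, SRSF3 and SRSF5) against 7.10%. TGACGTCA, which contains it, was found in 0 genes against 1.65% of windows, and CACGTG in 0 genes against 6.34%. A match is a string of letters and not a site known to be bound, and genes that moved in opposite directions shared GGGCGG and the NRF1 motif.

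The comparison of THZ1-treated with DMSO-treated cells asked how the amount of each RNA changed with THZ1. Among the 10 genes, CLK1 and SRSF11 rose, SRSF1, SRSF3, SRSF4 and SRSF6 fell, and SRSF2, SRSF5, SRSF7 and SRSF10 passed no test in either direction (edgeR's quasi-likelihood test, adjusted p under 0.05 by Benjamini-Hochberg over all genes tested). Over all genes tested, 43.5% were called higher and 41.1% lower, 84.5% in all. With the TMM scaling, the 6 called members are a smaller part of the set than the called genes are of the whole. The number of members called changed with the scaling, as given below. The share over all genes under the other scalings is not given here, so this comparison holds for the TMM fit alone. The median log2 fold change of the 10 genes was −0.02, and that of all genes tested was 0.03, with quartiles at −0.90 and 1.46. The 11929 protein-coding genes tested, the class to which all 10 belong, had a lower median of −0.20, with quartiles at −0.99 and 0.77. When a log2 fold change of 1.5 or more in size was required as well, 1 member was higher (CLK1, against 24.6% of all genes) and 1 lower (SRSF1, against 12.9%). The treatments did not overlap in 6 of the 10 genes, whereas they did not overlap in 84.7% of all genes tested.

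**Figure D1:**
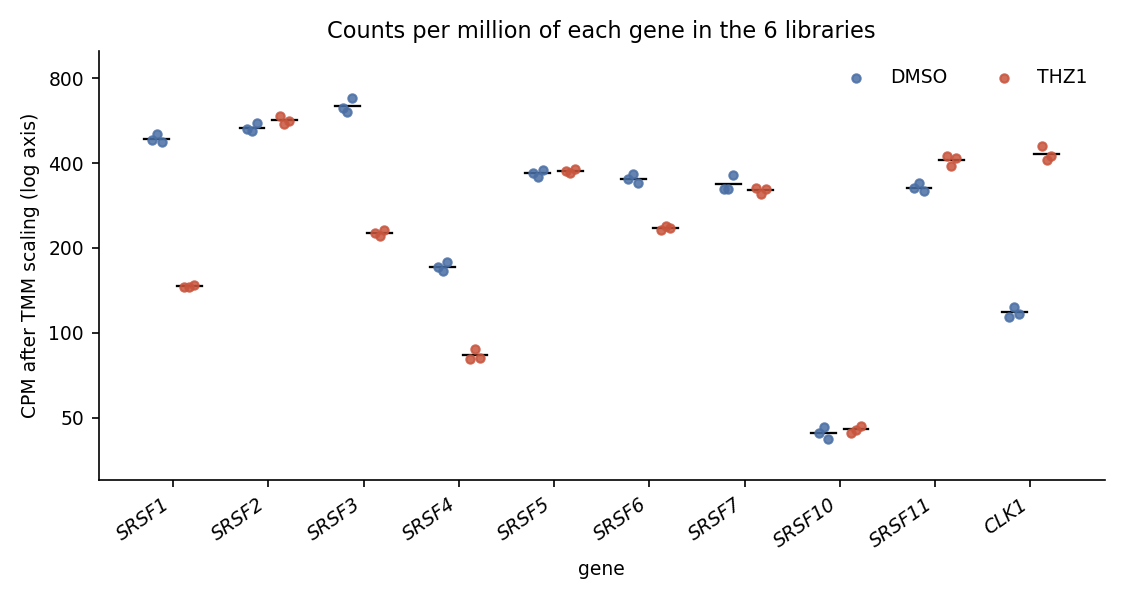
Level of each of the 10 genes in every library, in TMM-scaled CPM on a log axis, with 3 DMSO-treated and 3 THZ1-treated libraries as points and a short line for their mean. SRSF1, SRSF3, SRSF4 and SRSF6 lie lower with THZ1 and SRSF11 and CLK1 higher, with no overlap, and the points of SRSF2, SRSF5, SRSF7 and SRSF10 overlap.

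SRSF1, the founding member of the family, selects splice sites and also acts in mRNA surveillance and translation. It was at 481, 505 and 476 CPM in the DMSO-treated libraries and at 146, 146 and 147 CPM in the THZ1-treated ones. Every THZ1-treated library was thus far below every control library, and the spread within THZ1 was small. The means were 487 ± 15.5 and 146 ± 0.925 CPM (SD, n = 3 libraries each), 3.33-fold lower. Its log2 fold change of −1.74 (SE 0.07, edgeR adjusted p = 8.0e-21) was the lowest of the 10 genes and stood at the 9.55th percentile of all genes tested.

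SRSF3, the smallest SR protein, links splicing with export of mRNA and with the choice of polyadenylation sites. With DMSO it was at 628, 604 and 680.2 CPM, the highest level in CPM of the 10 genes, and with THZ1 at 226, 221 and 232 CPM. The fall from 638 ± 38.8 to 226 ± 5.79 CPM was 2.81-fold (log2 fold change −1.49, SE 0.07, edgeR adjusted p = 6.0e-19). SRSF3 and SRSF1 were each other's nearest gene within the set, with a root mean square difference of 0.143 between their log2 CPM profiles over the 6 libraries after each gene was centred on its mean.

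SRSF4 and SRSF6 are close relatives with a pair of RNA recognition motifs each and long arginine and serine rich tails. SRSF4 went from 171, 165 and 179 CPM with DMSO to 80.9, 87.5 and 81.5 CPM with THZ1, a 2.06-fold fall (log2 fold change −1.04, SE 0.07, edgeR adjusted p = 2.2e-14). SRSF6 went from 351, 365 and 339 CPM to 231, 239 and 235 CPM, a 1.496-fold fall (log2 fold change −0.58, SE 0.07, edgeR adjusted p = 1.6e-09). Neither gene had a THZ1-treated library within the range of the controls. SRSF6 was the smallest of the 4 falls, at the 33.3rd percentile of all genes tested.

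For 4 SR genes the libraries of both treatments overlapped. SRSF2, which stays in the nucleus and is mutated in myeloid neoplasms, was at 527, 518 and 553 CPM with DMSO and at 586, 550.0 and 564 CPM with THZ1. SRSF5, a further SR protein with a pair of RNA recognition motifs, was at 368, 357 and 377 CPM with DMSO and at 374, 369.7 and 382 CPM with THZ1. In both genes the highest control library exceeded the lowest THZ1-treated library. SRSF7, which resembles SRSF3 and carries in addition a zinc knuckle, was at 324, 324 and 364 CPM with DMSO and at 327, 312 and 324 CPM with THZ1. SRSF10, which represses splicing when it is dephosphorylated in mitosis or heat shock, was at 44.1, 46.6 and 42.0 CPM with DMSO and at 44.2, 45.4 and 46.8 CPM with THZ1. The ranges of SRSF7 and SRSF10 also crossed, and SRSF10 was the lowest of the 10 genes in CPM under both treatments.

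The intervals of these 4 genes take the TMM scaling as fixed, and values under other scalings fell outside them. The log2 fold change of SRSF2 was 0.09 (95% interval −0.04 to 0.22, edgeR adjusted p = 0.204) and that of SRSF5 was 0.03 (−0.10 to 0.16, adjusted p = 0.666). For SRSF7 it was −0.07 (−0.21 to 0.07, adjusted p = 0.320) and for SRSF10 0.04 (−0.14 to 0.22, adjusted p = 0.689). A p that misses the threshold does not show that a gene was equal in both treatments, and for these 4 genes the direction and the call depended on the scaling. With upper quartile factors, which move the median of all genes by 0.19, 5 members were called higher and 4 lower. With library sizes alone, which move it by −0.25, 1 was called higher (CLK1) and 8 lower. Relative to the median of all genes tested, SRSF2 was at 0.06, SRSF5 at 0.00, SRSF7 at −0.10 and SRSF10 at 0.01 on the log2 scale. These values depend on which genes enter the median. Where each library had to hold at least 10 counts, they were 0.25, 0.19, 0.09 and 0.20 in the same order.

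SRSF11, a larger SR-related protein that binds the factor U2AF and is less studied than the others, was higher with THZ1. It was at 325, 339 and 319 CPM in the controls and at 424, 389.7 and 417 CPM in the THZ1-treated libraries. The ranges did not overlap, and the rise was 1.25-fold (log2 fold change 0.32, SE 0.07, edgeR adjusted p = 4.3e-05). It lost the call with library sizes alone (log2 fold change 0.076, edgeR adjusted p = 0.265) and in the deposited FPKM values (0.15, limma adjusted p = 0.157). It also lies below the fold threshold of 1.5 on the log2 scale.

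CLK1 is a nuclear kinase of dual specificity that can modify serine, threonine and tyrosine, and SR proteins are its best known substrates. It was at 114, 124 and 117 CPM in the DMSO-treated libraries and at 461, 411 and 424 CPM in the THZ1-treated libraries. The lowest THZ1-treated library was far above the highest control library. The means were 118 ± 5.16 and 432 ± 26.0 CPM (SD, n = 3 each), a 3.66-fold rise (log2 fold change 1.87, SE 0.07, edgeR adjusted p = 3.3e-21). This was the highest fold change of the 10 genes, and 78.8% of all genes tested were below it.

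**Figure D2:**
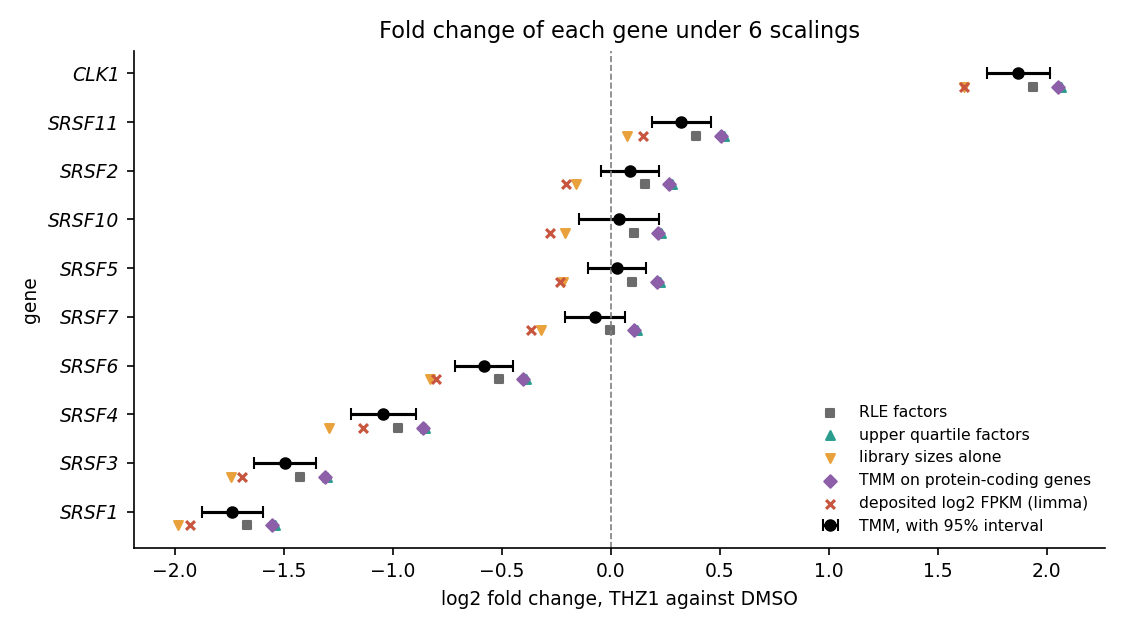
Log2 fold change of THZ1 against DMSO for the 10 genes, as a black point with a bar for the 95% interval of the TMM fit, and as colored symbols under 5 other scalings or data (RLE factors, upper quartile factors, library sizes alone, TMM on protein-coding genes, and limma on the deposited log2 FPKM). The TMM values run from −1.74 for SRSF1 to 1.87 for CLK1, and the symbols of SRSF2, SRSF5, SRSF7 and SRSF10 fall on both sides of 0.

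The share of each gene in the counts on the 10 genes needs no scaling between libraries. CLK1 took 3.50 ± 0.175% of these counts with DMSO and 15.2 ± 0.605% with THZ1 (SD, n = 3). SRSF1 went from 14.4 ± 0.637% to 5.15 ± 0.115%, and SRSF3 from 18.9 ± 0.848% to 7.97 ± 0.178%. These were the 3 largest changes in share among the 10 genes. SRSF4 went from 5.08 ± 0.134% to 2.93 ± 0.196%, and SRSF6 from 10.4 ± 0.540% to 8.28 ± 0.335%. The shares of SRSF11 (9.71 ± 0.436% to 14.4 ± 0.316%), SRSF2 (15.8 ± 0.286% to 19.9 ± 0.234%) and SRSF5 (10.9 ± 0.199% to 13.2 ± 0.266%) were higher with THZ1. SRSF7 held 9.99 ± 0.505% and 11.3 ± 0.0479%, and SRSF10 held 1.31 ± 0.0860% and 1.60 ± 0.0671%. Since shares sum to a whole, a higher share of 1 gene lowers those of the others.

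**Figure D3:**
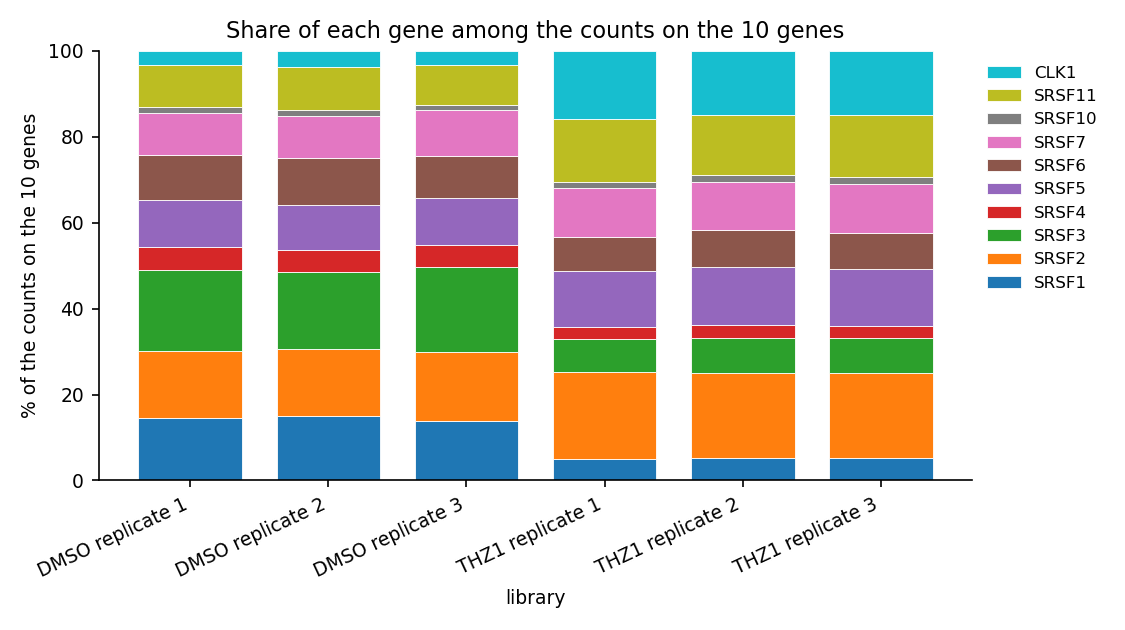
Share of each gene in the counts on the 10 genes, in percent, as stacked colors in a column for each of the 3 DMSO-treated and 3 THZ1-treated libraries. The mean share of CLK1, at the top, rises from 3.50% to 15.2%, while that of SRSF1, at the base, falls from 14.4% to 5.15% and that of SRSF3 from 18.9% to 7.97%.

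Summed over the 9 SR genes, the level was 3221 to 3329 CPM in the DMSO-treated libraries and 2360 to 2440 CPM in the THZ1-treated libraries. In unscaled counts they took 0.354 ± 0.00241% of a DMSO-treated library and 0.220 ± 0.00350% of a THZ1-treated one. For every 100 counts on the 9 SR genes there were 3.63 ± 0.189 counts on CLK1 with DMSO and 17.9 ± 0.844 with THZ1. The ranges of this ratio, 3.50 to 3.85 and 17.4 to 18.9, were wide apart.

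Levels of different genes were compared per transcript length, in FPKM (fragments per length of transcript and depth of library) taken from the second deposited table. SRSF2 had the highest level of the 10 genes under both treatments, with 519 ± 21.4 FPKM in DMSO-treated and 449 ± 9.74 FPKM in THZ1-treated cells. In DMSO-treated cells SRSF3 (263 ± 2.50 FPKM), SRSF1 (251 ± 20.6) and SRSF7 (246 ± 6.81) came next, and the libraries of neighbours in this order overlapped. SRSF6 (212 ± 18.9) and SRSF5 (202 ± 5.46) overlapped as well. They were followed, each apart from the next, by SRSF11 (110.4 ± 9.01), CLK1 (64.4 ± 4.27), SRSF4 (54.7 ± 0.974) and SRSF10 (11.0 ± 0.281).

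In THZ1-treated cells CLK1 was in second place of the order with 200.03 ± 9.45 FPKM, overlapping with SRSF7 at 191 ± 2.93 FPKM. SRSF5 followed at 172 ± 3.76 FPKM, and then SRSF11 (122 ± 4.33) and SRSF6 (121 ± 2.36), which overlapped each other. SRSF3 (80.8 ± 1.76), SRSF1 (64.9 ± 0.527), SRSF4 (24.4 ± 0.942) and SRSF10 (8.91 ± 0.312) came last, each apart from its neighbours. CLK1 thus moved from rank 8 to rank 2, and SRSF3 and SRSF1 left ranks 2 and 3 for ranks 7 and 8. In this table the values of libraries of 1 treatment had been made nearly alike by a step that the sources used here do not name, so the SD in FPKM may be too small.

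**Figure D4:**
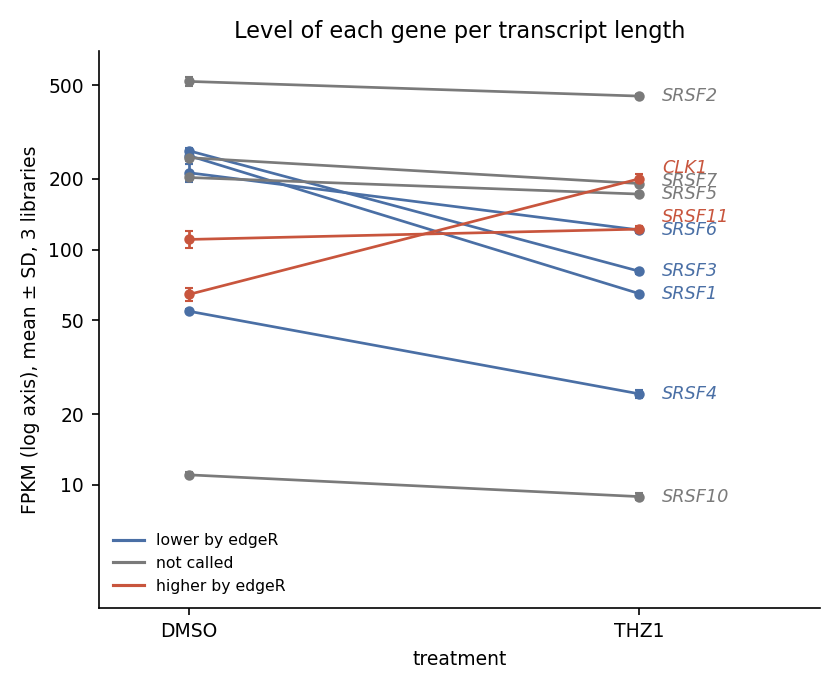
Level per transcript length of the 10 genes in FPKM on a log axis, as the mean and SD of 3 DMSO-treated and 3 THZ1-treated libraries joined by a line for each gene, colored by the edgeR call on the counts (red higher, blue lower, grey not called). The line of CLK1 rises from 64.4 to 200.03 FPKM and crosses those of SRSF1 and SRSF3, which fall to 64.9 and 80.8 FPKM.

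Of all genes tested, the 3 with profiles most like CLK1 over the 6 libraries were RSRP1, IRF4 and ATAT1, with root mean square differences of 0.0301, 0.0414 and 0.0495 in centred log2 CPM. RSRP1, which encodes an arginine and serine rich protein, went from a mean of 140.0 to 512 CPM (log2 fold change 1.87). IRF4, a transcription factor of lymphocytes, went from 201 to 729 CPM (1.86), and ATAT1, an acetyltransferase of tubulin, from 27.6 to 107.9 CPM (1.97). No member was close to CLK1, the nearest being SRSF11 at 0.773. SRSF2 and SRSF5 were the pair of members most alike, at 0.0407. The 6 libraries share 2 treatments, so genes with a similar change between treatments come out as alike.

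Among the other kinases of SR proteins, CLK2 was higher, SRPK1 was lower, and CLK3, CLK4 and SRPK2 passed no test. CLK2, a CLK kinase with a similar role, rose 2.23-fold, from 119.7 ± 1.54 to 267 ± 11.0 CPM (log2 fold change 1.16, SE 0.07, edgeR adjusted p = 3.0e-16). CLK3 was at 93.1 ± 6.65 and 104 ± 6.75 CPM (0.16, 95% interval 0.00 to 0.32, adjusted p = 0.0554) and CLK4 at 23.2 ± 4.22 and 26.5 ± 1.26 CPM (0.19, −0.06 to 0.44, adjusted p = 0.147). The calls of both depended on the setting. CLK3 was called higher under 7 of 17 alternatives and CLK4 under 5, among them upper quartile factors (0.36, edgeR adjusted p = 0.00012, and 0.38, adjusted p = 0.0049). Both turned to lower values, with no call, with library sizes alone and in FPKM. The difference in fold change between CLK1 and these kinases was not tested. SRPK1, the main cytoplasmic SR kinase, fell 2.91-fold, from 186 ± 11.5 to 64.1 ± 5.41 CPM (log2 fold change −1.54, edgeR adjusted p = 9.0e-18). SRPK2, its close relative, was at 53.9 ± 6.94 and 53.9 ± 4.76 CPM, with a log2 fold change of 0.00 (−0.19 to 0.20, adjusted p = 0.981) whose sign changed with the scaling. Under the 17 alternatives SRPK2 ran from −0.25 to 0.20, and a call as lower was among them. Over the 12 genes tested of other kinases, the phosphatase and the import receptor of SR proteins, 4 were higher, 4 lower and 4 not called. For all genes tested the shares were 43.5% higher and 41.1% lower. With RLE or upper quartile factors 7 of the 12 were called higher. The shares over all genes tested with these factors are not given here, so the shares above apply to the TMM fit alone.

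Among other SR and SR-related proteins, 9 of 18 tested genes were higher, 7 lower and 2 not called, with a median log2 fold change of 0.14. This split is near that of all genes tested, of which 43.5% were higher and 41.1% lower. SRRM2, a large scaffold protein of nuclear speckles, was the highest, at 823 ± 105 CPM with DMSO and 4259 ± 178 CPM with THZ1 (log2 fold change 2.37, SE 0.08, edgeR adjusted p = 2.6e-22). RSRC1 was the lowest, at 39.8 ± 1.59 and 11.5 ± 1.46 CPM (−1.80, adjusted p = 5.7e-15). SRSF9, a short SR protein related to SRSF1, fell from 252 ± 22.1 to 121 ± 9.38 CPM (−1.06, adjusted p = 4.5e-14). TRA2B, an SR-like splicing activator, fell from 350.1 ± 8.54 to 239 ± 8.41 CPM (−0.55, adjusted p = 4.5e-09). Its paralog TRA2A was at 166 ± 6.17 and 187 ± 1.65 CPM (0.17, adjusted p = 0.0205). This call was lost in 5 of the 6 fits that each left out 1 library, and the sign turned with library sizes alone (−0.08) and in FPKM (−0.02).

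Most other groups of splicing genes held more lower than higher genes, whereas 43.5% of all genes tested were higher and 41.1% lower. The genes of these lists are protein-coding, a class with a lower median log2 fold change (−0.20) than all genes tested (0.03). The shares called among protein-coding genes alone are not given here. Of 21 hnRNP genes, whose proteins often oppose SR proteins at exons, 16 fell and 4 rose, with a median log2 fold change of −0.99. HNRNPA2B1 was the lowest, from 1910.4 ± 61.1 to 356 ± 22.8 CPM (−2.43, edgeR adjusted p = 6.3e-24), and HNRNPH2 the highest, from 81.6 ± 1.14 to 257 ± 9.95 CPM (1.66, adjusted p = 6.2e-20). Of the 7 genes of Sm proteins, which form the ring of the spliceosomal snRNPs, 6 fell and 0 rose (median −1.44). SNRPD1 was the lowest, from 147 ± 16.9 to 26.6 ± 1.63 CPM (−2.47), and SNRPG fell least among those called, from 85.5 ± 8.61 to 61.1 ± 3.03 CPM (−0.48).

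Of 18 genes of the U1 and U2 snRNPs and factors of the 3′ splice site, 10 fell and 6 rose (median −0.47). SF3A3 fell from 201 ± 9.35 to 82.5 ± 2.43 CPM (−1.28), and SF3B4, a partner in the same U2 particle, rose from 104 ± 3.80 to 375 ± 18.4 CPM (1.84). Of 24 genes of the U4/U6.U5 snRNP, the PRP19 complex and the spliceosomal helicases, 17 fell and 5 rose (median −0.52). EFTUD2, a GTPase of the U5 particle, fell from 181 ± 3.87 to 54.7 ± 5.55 CPM (−1.73), and the helicase DHX38 rose from 132 ± 2.89 to 636 ± 5.87 CPM (2.27). Over all 125 other genes tested in the lists of splicing, decay and export factors, 37 were higher, 76 lower and 12 not called, with a median of −0.45, against −0.20 for all protein-coding genes tested. With TMM, 43.5% of all genes tested were higher and 41.1% lower. For the 125 genes the split was 46 higher and 69 lower with upper quartile factors and 33 higher and 82 lower with library sizes alone. The shares over all genes tested under these other scalings are not given here.

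**Figure D5:**
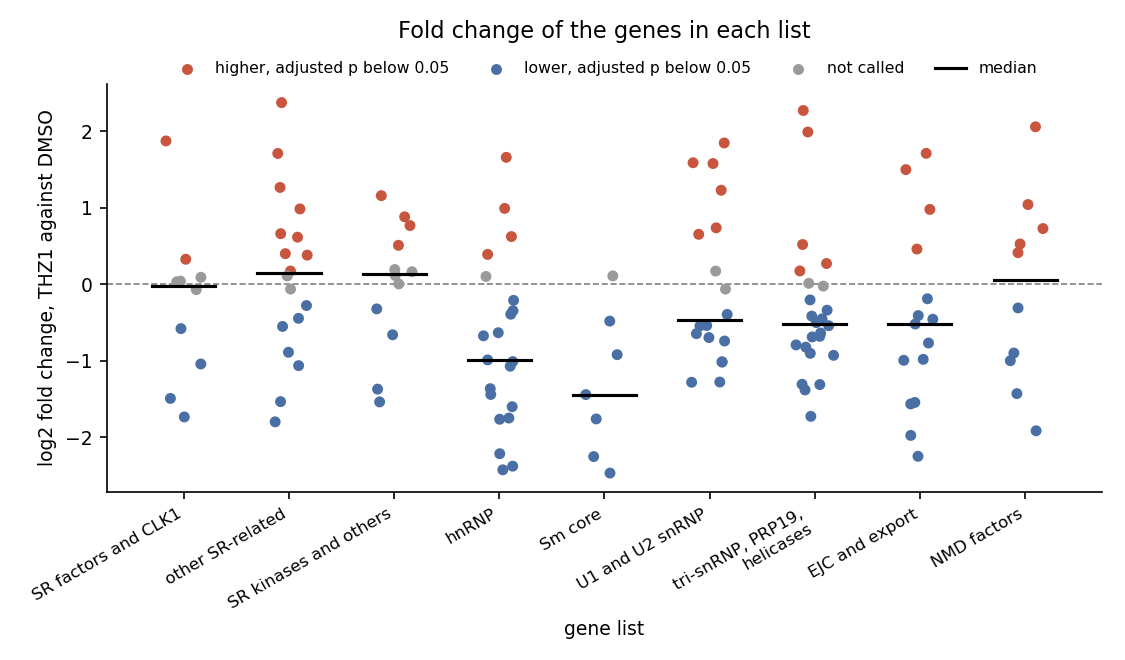
Log2 fold change of THZ1 against DMSO for the 10 genes and for the other lists of splicing, decay and export genes, with a point for each gene tested (red higher, blue lower, grey not called), a bar for the median of each list and a dashed line at 0. The medians run from −1.44 for the Sm proteins to 0.14 for the other SR proteins and the SR kinases, and that of the 10 genes is −0.02.

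The 10 genes have features of annotation in common. In GENCODE 44 mapped to GRCh37, all 10 had at least 1 annotated transcript of the nonsense-mediated decay class, as had 48.2% of the 11929 protein-coding genes tested. At least 1 transcript with a retained intron was annotated for 9 of the 10 genes (SRSF6 had none), against 61.2%. SRSF7 had the most decay transcripts, 6, and SRSF5 and CLK1 the most retained intron transcripts, 8 each. Genes with more annotated transcripts have more chances to hold either class. The genes spanned from 3219 bases (SRSF2, chr17:74730197-74733415, minus strand) to 47371 bases (SRSF11, chr1:70671365-70718735, plus strand), against a median of 30680 bases. The GC content of the canonical transcript was between 35.9% (SRSF10) and 51.4% (SRSF4), and the median was 49.4%.

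The positions of the other genes on GRCh37 were chr17:56078280-56084707 for SRSF1, chr6:36562130-36573377 for SRSF3 and chr1:29474255-29508412 for SRSF4. SRSF5 lies at chr14:70193617-70238722, SRSF6 at chr20:42086533-42094686 and SRSF7 at chr2:38970741-38978636. SRSF10 lies at chr1:24290837-24307417 and CLK1 at chr2:201717732-201729414, both on the minus strand. All 10 annotated processed pseudogenes of these genes were in the count table. Of them 3 held counts, at most 2 in a library, so few reads were assigned to the copies.

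The strand setting of the counting is not given in the sources used here, so genes that overlap a member may share its reads. MFSD11, a membrane protein gene on the opposite strand, overlaps exons of SRSF2. It rose from 353 ± 9.23 to 485 ± 7.10 CPM (log2 fold change 0.46, SE 0.06), and the value of SRSF2 is uncertain where the reads of both genes meet. ENSG00000266086, a protein-coding gene on the same strand as SRSF1, overlaps exons of SRSF1 and held 0 counts in every library. How reads in this overlap were assigned is not given, so the level of SRSF1 carries this uncertainty too. A Y RNA gene, ENSG00000252759, lies inside intron 1 of CLK1 (the intron is chr2:201726586-201729286 and the RNA chr2:201727875-201727970, GRCh37, same strand) and touches no CLK1 exon. Its sequence is shown because reads in this stretch can come from the small RNA or from CLK1 RNA that still holds the intron.
Y RNA in CLK1: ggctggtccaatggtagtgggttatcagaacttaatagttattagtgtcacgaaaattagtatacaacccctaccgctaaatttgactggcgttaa

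This stretch held 5, 2 and 1 counts in the DMSO-treated libraries and 41, 34 and 43 in the THZ1-treated libraries. The THZ1-treated libraries were all higher, with a mean of 0.221 ± 0.172 CPM against 5.28 ± 0.530 CPM (log2 fold change 4.50, SE 0.41, edgeR). The Y RNA and unspliced CLK1 RNA cannot be told apart in these counts.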

How the data were processed

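RNA-SEQ was performed on 6 NALM6 libraries. RNA had been extracted with TRIzol, and STAR had placed the filtered reads on GRCh37. The authors deposited raw counts per gene from htseq-count, and the submitters' processing notes also name cutadapt and RSEM. The gene annotation and the strand setting are not given in the sources used here. A second deposited table holds FPKM of 16730 genes on a log2 scale, read here as log2(FPKM + 1) and taken back to FPKM. The planned analysis had assumed a linear scale. Its columns of the authors' p-values, FDR and log2 fold changes were not used.

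The 10 genes and all lists were chosen with earlier results of these data known. Genes were filtered with filterByExpr (minimum count 10, minimum total 15), scaled by TMM and tested with edgeR's quasi-likelihood test (two-sided) with Benjamini-Hochberg adjustment over 16622 genes. SE were derived from the F statistic. Lists were described by counts and medians, with no set test. The named genes were all members, the highest and lowest called gene of each list with a mean of at least 10 CPM, CLK2, CLK3, CLK4, SRPK1, SRPK2, TRA2A, TRA2B and SRSF9, pseudogenes and overlapping genes with reads, and the nearest profiles (log2 CPM, prior count 2). In addition, ENSG00000266086, an overlapping gene without reads, is named. The cell type markers named were chosen after their values were seen. The lists were written from general knowledge, and of 129 listed genes 126 were in the table, while SRSF8, NHP2L1 and RBM8A are not analysed here. Replicate libraries differed by more than sampling noise (chi-square per gene 1.78 to 8.61). The pipeline was tested on simulated counts. Alternatives were upper quartile or RLE factors, library sizes without factors, TMM on protein-coding genes, DESeq2, other filters, a replicate block, single libraries left out, and limma on log2(FPKM + 1) or log2(FPKM + 0.1). R 4.3.3, edgeR 4.0.16, limma 3.58.1, DESeq2 1.42.0, Python 3.11.15, numpy 2.4.6, pandas 2.3.3 and matplotlib 3.10.9 were used.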

Additional observations from a re-analysis of the deposited data

How the results depend on the processing

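SRSF1, SRSF3, SRSF4, SRSF6 and CLK1 kept their direction and their call in 85 of 85 values over 17 alternatives. The other members depended on the scaling, and the shift of the median of all genes moved with them (0.19 with upper quartile factors, 0.18 with TMM on protein-coding genes, −0.25 with library sizes alone). Members called higher were 5 with upper quartile factors or TMM on protein-coding genes, 4 where each library had to hold at least 10 counts, and 1 with library sizes alone or any of the 3 limma fits on FPKM. Members called lower were 8 with library sizes alone and in each limma fit. Where the log2 fold change also had to reach 1.5 in size, 1 member was higher and 1 lower, and of the other splicing genes 10 were higher and 18 lower. At this size 24.6% of all genes tested were higher and 12.9% lower. With upper quartile factors the log2 fold changes were 0.28 (SRSF2), 0.22 (SRSF5), 0.12 (SRSF7) and 0.23 (SRSF10), and with TMM on protein-coding genes 0.27, 0.21, 0.11 and 0.22. With library sizes alone they were −0.16, −0.22, −0.32 and −0.21, and SRSF11 was at 0.076. With a minimum of 10 counts for each library SRSF2 was at 0.22, SRSF5 at 0.16 and SRSF7 at 0.061, and with no filter SRSF5 was at −0.056, SRSF7 at −0.16 and SRSF10 at −0.048. SRSF2 was at 0.16 with RLE factors and at 0.16 with DESeq2. In limma on FPKM with a pseudocount of 1, at either minimum FPKM, SRSF2 was at −0.21, SRSF5 at −0.23, SRSF7 at −0.36, SRSF10 at −0.28 and SRSF11 at 0.15, and with 0.1 at −0.21, −0.23, −0.37, −0.30 and 0.15. Of the kinases and TRA2A, library sizes alone gave −0.085 (CLK3), −0.056 (CLK4), −0.25 (SRPK2) and −0.076 (TRA2A). The FPKM fits gave −0.078 or −0.084 (CLK3), −0.20 or −0.22 (CLK4), −0.13 (SRPK2) and −0.024 or −0.025 (TRA2A), and no filter gave −0.084 (SRPK2). Leaving out single libraries gave −0.013 to 0.030 for SRSF5, −0.017 to 0.054 for SRSF10, −0.11 to 0.065 for SRPK2 and 1.81 to 1.89 for CLK1, and SRSF5 turned without DMSO replicate 2 and SRSF10 without DMSO replicate 3. The cause of these changes was not tested beyond the scaling. Libraries of the same replicate number did not deviate together (correlations −0.0040 to 0.0206). This gives no sign of pairing by number, but it cannot show whether such samples were set up or handled together. A replicate block gave 1.87 for CLK1 and −1.73 for SRSF1 and changed no call of a member.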

Other observations

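The 10 genes of nonsense-mediated decay tested, whose pathway degrades transcripts with premature stop codons, were split, with 5 higher and 5 lower. For all genes tested the shares were 43.5% higher and 41.1% lower. SMG8, a regulator of the kinase SMG1, was the highest, from 24.5 ± 0.897 CPM in the controls to 102 ± 2.53 CPM after THZ1 (log2 fold change 2.06, edgeR adjusted p = 4.0e-20). SMG9, its binding partner, was the lowest, from 59.6 ± 4.18 to 15.8 ± 0.135 CPM (−1.92, adjusted p = 3.3e-17). Of 15 genes of the exon junction complex and of mRNA export, 11 fell and 4 rose. THOC7, a subunit of the THO complex, fell from 51.8 ± 5.53 to 10.9 ± 1.28 CPM (−2.25, adjusted p = 2.6e-17), and DDX39B, the export helicase to which THO binds, rose from 176 ± 12.2 to 575 ± 9.82 CPM (1.71, adjusted p = 2.2e-20).

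A further RNA inside a member, ENSG00000228988, lies on the opposite strand of SRSF11 and touches none of its exons. It held 0 counts in every DMSO-treated library and 5, 12 and 10 counts in the THZ1-treated libraries.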
